A study of Mus musculus with 6 samples.

Results

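The p53 target and Gadd45 growth arrest genes are 10 liver transcripts, Cdkn1a, Mdm2, Ccng1, Plk3, Btg2, Gadd45a, Gadd45b, Gadd45g, Sesn1 and Phlda3. They were chosen by exact gene symbol, and all 10 were found among 35976 rows of the count table. Poly(A) RNA was sequenced from 3 livers of male mice of genotype IRE1PKO and 3 of genotype IRE1fl, and every animal received the HFD treatment, taken to mean a high-fat diet. The animals had been fasted for 16 hours and then fed for 4 hours. IRE1 is a sensor of unfolded protein in the endoplasmic reticulum. IRE1fl is read here as the floxed allele without deletion. PKO is not spelled out in the labels, which name neither the Cre driver nor the deleted cells, while the series title concerns communication between pituitary and liver. Nor do they say whether each library is a different animal, and p-values reflect only library-to-library spread, part of which could be technical.

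p53 is a transcription factor that is held low by the ubiquitin ligase Mdm2 and is stabilised by DNA damage and other stress. Its activity is read from its target transcripts, since it is controlled mainly at the protein level. The targets include Cdkn1a, whose product p21 inhibits cyclin-dependent kinases, and genes that slow growth or dampen insulin and nutrient signalling. The Gadd45 proteins bind PCNA, p21 and the kinase MAP3K4, and respond to stress, cytokines and mitogens. Several genes of the group also respond without p53: Btg2, Plk3 and Gadd45b are known as early response genes in cultured cells.

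Promoter sequence is shown for the genes whose levels or known regulation the results turn on. It gives the 250 bases before the annotated start, 5′ to 3′ on the gene's strand, from RefSeq on GRCm38.p6, the build that mm10 names. All 10 genes matched an entry, with 12 start sites in all, since Cdkn1a and Sesn1 have a second start. In the first pair, capitals mark a p53 response element, defined here as 20 bases made of a pair of adjoining half-sites with at most 1 base off the consensus. Such an element was found before the upstream start of Cdkn1a (chr17:29090729-29090978, plus strand) and before Ccng1 (chr11:40755287-40755536, minus strand), and in 0.0762% of all 32807 windows of the same length. A half-site that matched the consensus in full was in 5 of the 10 genes, or 5 of their 12 windows, against 7.13% of all windows. The 5 were Cdkn1a, Ccng1, Gadd45a, Mdm2 and Sesn1. Since the group was chosen to hold p53 targets, these shares describe it and do not test it. Sequence outside these windows was not searched.

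Cdkn1a: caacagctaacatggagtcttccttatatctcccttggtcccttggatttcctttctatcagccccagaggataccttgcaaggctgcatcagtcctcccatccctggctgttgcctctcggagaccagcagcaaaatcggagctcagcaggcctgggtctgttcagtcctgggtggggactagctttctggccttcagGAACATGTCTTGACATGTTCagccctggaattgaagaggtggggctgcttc

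Ccng1: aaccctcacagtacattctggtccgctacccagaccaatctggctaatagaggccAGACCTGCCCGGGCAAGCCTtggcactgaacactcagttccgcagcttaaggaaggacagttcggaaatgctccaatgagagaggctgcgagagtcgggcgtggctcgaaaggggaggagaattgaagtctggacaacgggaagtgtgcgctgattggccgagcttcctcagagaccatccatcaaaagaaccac

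The Cdkn1a element ends 32 bases before the upstream start and 2822 bases before the other annotated start. Counts per gene do not tell which start was used. In the next pair, capitals mark the cAMP response element half-site TGACG, searched on both strands and present in 17.8% of windows. Plk3 (chr4:117133964-117134213, minus strand) holds it at 2 places. In Btg2 (chr1:134079156-134079405, minus strand) a half-site on each strand overlaps to give the full palindrome TGACGTCA, found in 1.55% of windows. Sesn1, which was not called, also holds the half-site, 61 to 57 bases before one of its starts, so 3 of the 10 genes have it.

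Plk3: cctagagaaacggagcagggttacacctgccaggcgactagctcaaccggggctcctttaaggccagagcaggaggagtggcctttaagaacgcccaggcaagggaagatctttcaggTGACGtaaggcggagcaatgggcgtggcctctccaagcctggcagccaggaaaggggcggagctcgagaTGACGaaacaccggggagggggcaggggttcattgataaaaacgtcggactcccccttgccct

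Btg2: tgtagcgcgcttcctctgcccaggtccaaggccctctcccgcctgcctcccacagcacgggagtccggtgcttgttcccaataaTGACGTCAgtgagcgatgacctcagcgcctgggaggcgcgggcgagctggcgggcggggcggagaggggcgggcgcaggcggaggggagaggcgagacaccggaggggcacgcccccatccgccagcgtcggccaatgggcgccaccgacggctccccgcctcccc

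The Gadd45 family is shown because its members had unlike fitted changes. Capitals mark the TATA box TATAAA, the CCAAT box and the E-box CACGTG, each searched on both strands and none overlapping another here. They occur in 12.4%, 33.8% and 6.02% of windows. Gadd45b (chr10:80929841-80930090, plus strand) and Gadd45g (chr13:51846425-51846674, plus strand) hold all of them. Of these motifs Gadd45a (chr6:67037408-67037657, minus strand) holds the CCAAT box alone. The p53 half-site of Gadd45a, 40 to 31 bases before its start, is left in lower case.

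Gadd45b: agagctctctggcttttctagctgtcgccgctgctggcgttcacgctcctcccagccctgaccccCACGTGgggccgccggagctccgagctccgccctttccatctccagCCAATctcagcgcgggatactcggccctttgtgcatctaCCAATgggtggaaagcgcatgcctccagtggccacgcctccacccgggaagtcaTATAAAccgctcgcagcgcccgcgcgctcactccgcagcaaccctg

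Gadd45g: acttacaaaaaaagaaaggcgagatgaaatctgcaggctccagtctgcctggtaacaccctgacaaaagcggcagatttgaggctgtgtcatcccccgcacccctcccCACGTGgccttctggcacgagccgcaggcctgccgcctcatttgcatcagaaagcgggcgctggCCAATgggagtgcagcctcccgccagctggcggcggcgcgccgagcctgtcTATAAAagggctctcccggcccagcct

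Gadd45a: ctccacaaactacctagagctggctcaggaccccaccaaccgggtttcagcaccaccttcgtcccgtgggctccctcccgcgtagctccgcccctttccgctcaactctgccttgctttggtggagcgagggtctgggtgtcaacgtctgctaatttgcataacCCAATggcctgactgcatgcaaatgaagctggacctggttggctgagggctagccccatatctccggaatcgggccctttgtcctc

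The AP-1 site TGANTCA was in none of the 12 windows and in 6.75% of all windows. A match is a description of these letters and not a measured binding site.

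Libraries held between 35776219 and 39277435 counts, and 14954 genes passed the filter on low counts and were tested. All 10 genes passed it. Ern1, which encodes IRE1, had 45.7, 36.6 and 44.2 CPM (counts scaled to library size) in IRE1PKO livers, against 61.2, 49.3 and 60.8 CPM in IRE1fl livers. Its log2 fold change was -0.44 (SE 0.11, edgeR adjusted p = 0.0357), and the call was kept only when IRE1fl 2 was the library removed (adjusted p up to 0.137 otherwise). The labels do not say in which tissue the gene was deleted, so this level does not check them. Albumin took 5.56% to 7.19% of counts. Fewer cells of a type and less RNA per cell cannot be told apart in bulk liver.

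In IRE1PKO livers 5 of the 10 genes rose and none fell. Plk3, Phlda3, Gadd45b, Btg2 and Ccng1 passed at an adjusted p of 0.05 (edgeR quasi-likelihood F-test, Benjamini-Hochberg over all tested genes). Over all tested genes 5.68% were called higher and 3.86% lower, and higher genes made up 59.5% of calls, or 73.4% when only library totals were used for scaling. The fitted log2 fold change was above 0 for all 10 genes, with a median of 0.64, beside -0.0014 over all tested genes. Every IRE1PKO library lay above every IRE1fl library for 7 of the 10, against 16.0% of tested genes. The 10 genes were chosen with earlier results of these data known, so these comparisons describe the group and do not test it. The number called was 2 without IRE1PKO 1 (Plk3 and Phlda3), 4 without IRE1fl 2 or IRE1fl 3, and 6 without IRE1fl 1, which adds Cdkn1a.

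**Figure D1:**
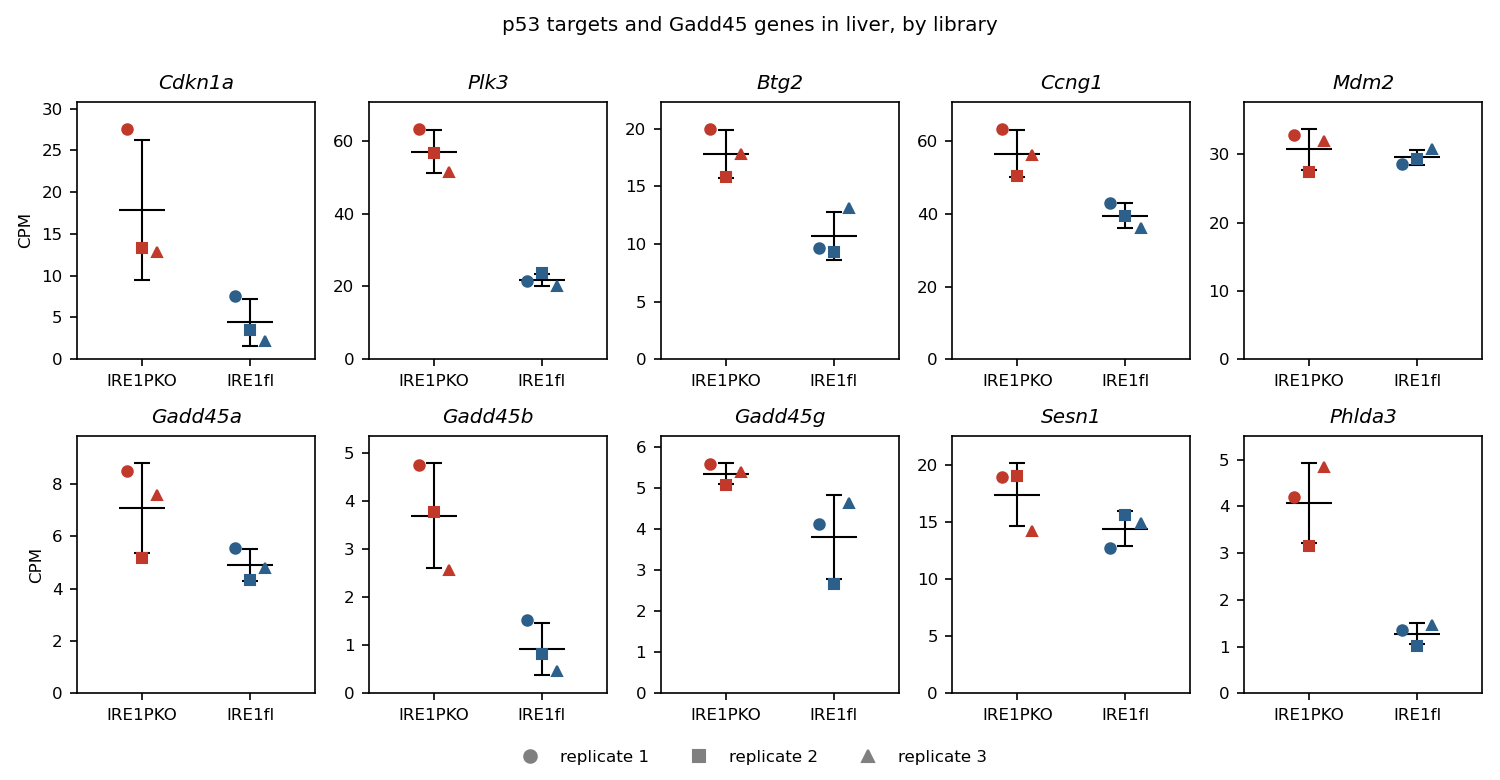
Level of each gene in CPM (vertical axes, each starting at 0) in the 3 IRE1PKO and 3 IRE1fl libraries. Points are libraries and bars the mean ± SD (n = 3 each). The groups are apart for Cdkn1a, Plk3, Btg2, Ccng1, Gadd45b, Gadd45g and Phlda3, and overlap for Mdm2, Gadd45a and Sesn1.

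Among the genes that restrain the cell cycle, Cdkn1a (chromosome 17, 29090976 to 29100727) had the largest fitted difference and did not pass the test. It had 27.5, 13.4 and 12.8 CPM in IRE1PKO livers, against 7.56, 3.55 and 2.16 CPM in IRE1fl livers. The groups did not overlap, but the levels spread 2.15-fold within IRE1PKO and 3.51-fold within IRE1fl. The log2 fold change was 2.02 (SE 0.60, edgeR adjusted p = 0.12). Without IRE1fl 1, the highest of its group, it was 2.65 and passed (adjusted p = 0.0386), and without IRE1PKO 1 it was 1.57 (0.19). The call depended on how the model was fitted, since the DESeq2 Wald test (adjusted p = 0.0126), limma-voom (0.0226) and edgeR without robust fitting (0.0218) each called Cdkn1a higher. Over the alternatives of scaling, filter, test and library left out, the adjusted p ran from 0.0126 to 0.302. An unnamed transcript model on the other strand shares 1046 bases with the gene, and whether strand was used in counting is not given.

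Plk3 (chromosome 4, 117128655 to 117133963) encodes a polo-like kinase of the stress and cell cycle response. It had 63.2, 56.7 and 51.3 CPM in IRE1PKO livers, against 21.4, 23.6 and 20.2 CPM in IRE1fl livers. The lowest IRE1PKO library was 2.17 times the highest IRE1fl library. Plk3 rose by a log2 value of 1.39 (SE 0.10, edgeR adjusted p = 4.95e-05), the smallest p of the 10 genes, and passed without each library in turn (1.31 to 1.46). Tctex1d4, on the other strand, shares 84 bases with Plk3 and averaged 0.174 CPM in IRE1PKO and 0.0908 CPM in IRE1fl livers. Of the other polo-like kinases, Plk1, which drives mitosis, rose by 2.38 (SE 0.54, edgeR adjusted p = 0.0178) at means of 1.17 ± 0.458 CPM in IRE1PKO and 0.221 ± 0.12 CPM in IRE1fl livers (SD, n = 3 each). Its call was lost without IRE1PKO 1 or IRE1PKO 3 (adjusted p up to 0.0685). Plk2 and Plk4 had log2 fold changes of -0.21 (SE 0.12) and 0.38 (SE 0.34) and did not pass.

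Btg2 (chromosome 1, 134075170 to 134079120) encodes an antiproliferative adaptor of the CCR4-NOT deadenylase. It had 19.97, 15.8 and 17.8 CPM in IRE1PKO livers, against 9.67, 9.28 and 13.1 CPM in IRE1fl livers. The groups did not overlap, and IRE1fl 3 came nearest to IRE1PKO. Btg2 rose by 0.74 (SE 0.15, edgeR adjusted p = 0.012), a call lost without IRE1PKO 1 (0.65, adjusted p = 0.0646). Among its relatives, Tob2 fell by 0.58 (SE 0.13, edgeR adjusted p = 0.0229), lost without IRE1PKO 1 or any single IRE1fl library (up to 0.101). Btg1, Btg3 and Tob1 had log2 fold changes of 0.18 (SE 0.11), -0.52 (SE 0.35) and -0.04 (SE 0.10) and did not pass, and Btg4 had no counts.

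Ccng1 (chromosome 11, 40748552 to 40755311) encodes cyclin G1, a p53-induced partner of the phosphatase PP2A. It had 63.4, 50.5 and 56.1 CPM in IRE1PKO livers, against 42.9, 39.6 and 36.1 CPM in IRE1fl livers. All IRE1PKO libraries were higher, the closest pair by 1.18-fold. Ccng1 rose by 0.52 (SE 0.11, edgeR adjusted p = 0.0114). The call was lost without IRE1PKO 1 (0.43, adjusted p = 0.0555) or IRE1fl 3 (0.46, 0.0506). Neither Ccng2, the second cyclin G, at 0.32 (SE 0.13), nor Ccni, at 0.19 (SE 0.09), passed.

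Of the Gadd45 genes 1 passed and the other two did not, and a difference between them was not tested. Gadd45b (chromosome 10, 80930073 to 80932204), the member most tied to NF-kB and TGF-beta signalling, had 4.75, 3.77 and 2.57 CPM in IRE1PKO livers, against 1.52, 0.823 and 0.458 CPM in IRE1fl livers. These rest on 429 counts in IRE1PKO and 101 in IRE1fl. The groups were apart, with the lowest IRE1PKO library at 1.68 times the highest IRE1fl library. Gadd45b rose by 1.98 (SE 0.41, edgeR adjusted p = 0.014). The call was lost without IRE1PKO 1 (1.76, adjusted p = 0.0657) or IRE1fl 2 (1.90, 0.0576).

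Gadd45a (chromosome 6, 67035096 to 67037457), the p53-responsive member, had 8.47, 5.18 and 7.58 CPM in IRE1PKO livers, against 5.57, 4.34 and 4.80 CPM in IRE1fl livers. IRE1PKO 2 lay below IRE1fl 1, so the groups overlapped. The log2 fold change was 0.53 (SE 0.21) and did not pass (edgeR adjusted p = 0.133). The noncoding gene E230016M11Rik overlaps it on the other strand and averaged 1.599 ± 0.376 CPM in IRE1PKO and 1.94 ± 0.823 CPM in IRE1fl livers (SD, n = 3 each). Gadd45g (chromosome 13, 51846678 to 51848468) had 5.57, 5.08 and 5.38 CPM in IRE1PKO livers, against 4.13, 2.67 and 4.64 CPM in IRE1fl livers. The groups did not overlap, but IRE1fl spread 1.74-fold, and the log2 fold change of 0.49 (SE 0.22) did not pass (edgeR adjusted p = 0.192).

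The feedback regulator Mdm2 (chromosome 10, 117688875 to 117710758) had 32.9, 27.4 and 31.9 CPM in IRE1PKO livers, against 28.6, 29.4 and 30.8 CPM in IRE1fl livers. IRE1PKO 2 was the lowest of all 6 libraries and IRE1PKO 1 the highest. The log2 fold change was 0.06 (SE 0.10, edgeR adjusted p = 0.766), and it ran from 0.0052 to 0.13 over the fits without 1 library. Log2 fold changes were -0.03 (SE 0.10) for Mdm4, its p53-binding relative, and -0.11 (SE 0.10) for Trp53, the p53 gene itself, and neither passed.

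Sesn1 (chromosome 10, 41809935 to 41908424) encodes a sestrin, a family of stress proteins that restrain mTORC1 signalling. It had 18.9, 19.1 and 14.3 CPM in IRE1PKO livers, against 12.7, 15.7 and 14.9 CPM in IRE1fl livers. IRE1PKO 3 lay below 2 of the IRE1fl libraries. The log2 fold change of 0.27 (SE 0.14) did not pass (edgeR adjusted p = 0.254), and Sesn2 and Sesn3, at 0.28 (SE 0.17) and 0.12 (SE 0.15), did not pass either. An unnamed transcript model on the same strand shares 2584 bases with Sesn1, and reads from there cannot be told apart. Phlda3 (chromosome 1, 135766119 to 135769136) encodes a pleckstrin homology domain protein that competes with Akt at the membrane. It had 4.21, 3.15 and 4.84 CPM in IRE1PKO livers, against 1.36, 1.02 and 1.46 CPM in IRE1fl livers. The lowest IRE1PKO library was 2.16 times the highest IRE1fl library. Phlda3 rose by 1.67 (SE 0.26, edgeR adjusted p = 0.00283) and passed without each library in turn (1.52 to 1.82). Phlda1 did not pass, at -0.27 (SE 0.14), and Phlda2 was too low to test.

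**Figure D2:**
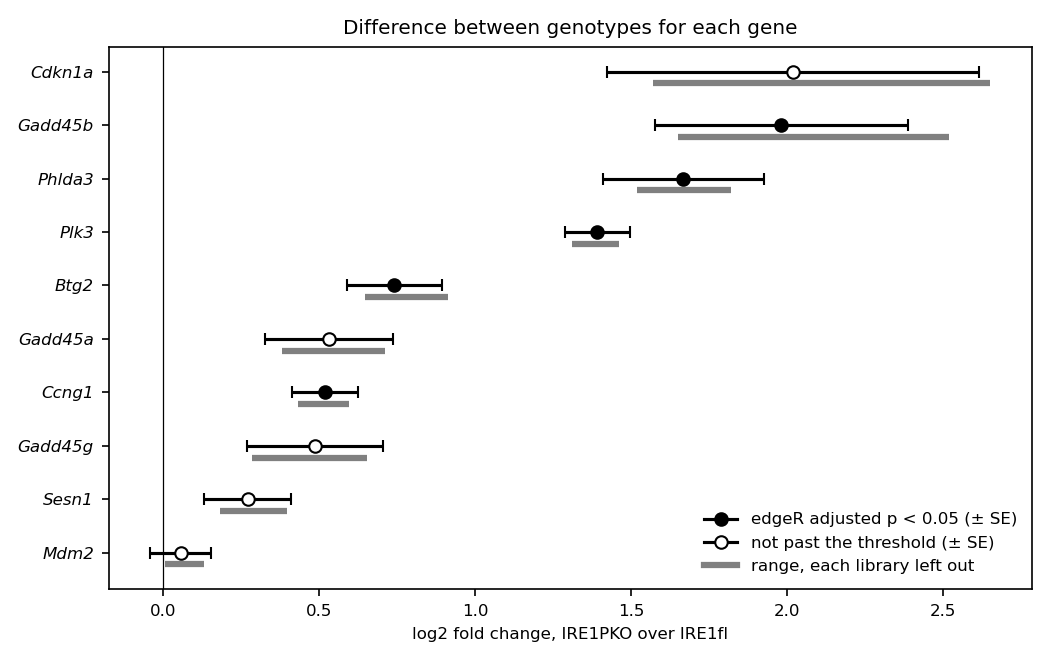
Log2 fold change of IRE1PKO over IRE1fl (horizontal axis) for each gene, with its SE as the error bar. Filled points passed the test, and grey bars give the range with each library left out, from 1.57 to 2.65 for Cdkn1a and 1.31 to 1.46 for Plk3.

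Levels between genes were compared as CPM divided by kilobases of merged exon (RPKM), with exon lengths from GENCODE vM21. In IRE1PKO livers Plk3 was highest at 22.5 ± 2.35 RPKM, followed by Ccng1 at 16.1 ± 1.85 RPKM, and their libraries did not overlap. In IRE1fl livers Ccng1 was highest at 11.3 ± 0.978 RPKM and Plk3 next at 8.60 ± 0.681 RPKM (SD, n = 3 each), so the order of this pair differed between genotypes. Cdkn1a took place 5 in IRE1PKO livers at 5.04 ± 2.35 RPKM and place 8 in IRE1fl livers at 1.24 ± 0.79 RPKM. Its IRE1PKO libraries overlapped those of Btg2, Mdm2, Gadd45g, Sesn1 and Gadd45a, and its IRE1fl libraries overlapped those of Phlda3 and Gadd45b, so neither place is resolved. Gadd45b had the lowest mean in both groups, at 2.33 ± 0.688 RPKM in IRE1PKO and 0.588 ± 0.341 RPKM in IRE1fl livers, with libraries that overlapped those of Phlda3 in both groups, of Gadd45a in IRE1PKO and of Cdkn1a in IRE1fl livers.

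The libraries of a group were not alike across these genes. IRE1PKO 1 was the highest IRE1PKO library for 8 of the 10 genes and the lowest for none. Over all tested genes it was the highest of its group for 34.1%, and over the genes called higher for 47.3%. In both groups Cdkn1a and Gadd45b ordered the libraries alike, with IRE1PKO 1 and IRE1fl 1 at the top and IRE1PKO 3 and IRE1fl 3 at the bottom. On log2 CPM centred on each gene's mean, IRE1fl 1 was at -0.09 for Cdkn1a and -0.19 for Gadd45b, and IRE1fl 3 at -1.88 and -1.82.

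**Figure D3:**
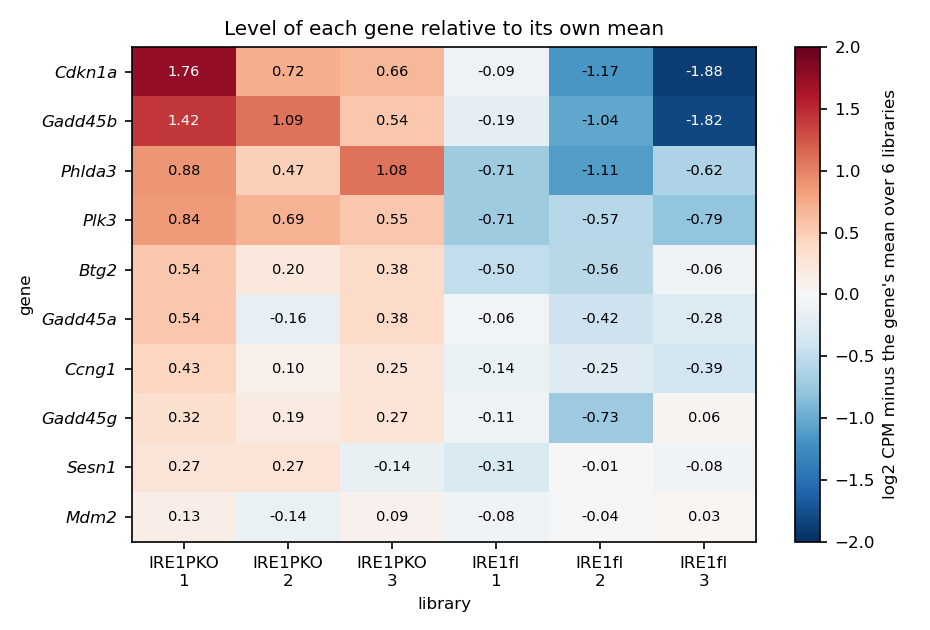
Log2 CPM minus the gene's mean over 6 libraries, for each gene (rows, by fold change) and library (columns, IRE1PKO left of IRE1fl). Cdkn1a ran from 1.76 in IRE1PKO 1 to -1.88 in IRE1fl 3, while Mdm2 stayed between 0.13 and -0.14.

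The genes whose pattern was most like that of Cdkn1a were sought among 11700 other tested genes with a mean of at least 1 CPM, leaving out predicted genes, pseudogenes, RIKEN clone names and date-like names, by the root mean squared difference of centred log2 CPM over the 6 libraries. They were Defb1 (0.14), a beta-defensin, Wfdc2 (0.24), Nrg1 (0.27), the growth factor neuregulin 1, Nipal1 (0.33) and Acot2 (0.34), an acyl-CoA thioesterase. Gadd45b stood at 0.22 by the same measure. Their log2 fold changes were 2.03 for Defb1, 1.81 for Wfdc2, 2.56 for Nrg1, 1.98 for Nipal1 and 1.90 for Acot2. These are a description with no test, since choosing genes with the profile of Cdkn1a fixes their direction and much of their size.

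Other genes of the p53 response were mostly not called, as was true of tested genes in general. Of 29 tested further p53 targets 4 rose, 1 fell and 24 did not pass. Over all tested genes 5.68% were called higher and 3.86% lower. The fitted log2 fold change was above 0 for 23 of the 29, with a median of 0.21. Ptp4a3, a phosphatase, rose by 1.01 (SE 0.17, edgeR adjusted p = 0.00406) and passed without each library in turn. Ckap2, a mitotic spindle protein, rose by 1.82 (SE 0.44) at a mean of 0.754 CPM over all libraries. Eda2r, a TNF family receptor, rose by 1.27 (SE 0.34), and Zmat3, an RNA-binding protein, by 0.48 (SE 0.13). Ckap2 and Zmat3 were kept only without IRE1PKO 2 and Eda2r only without IRE1fl 1 (adjusted p up to 0.164 otherwise), and the list count was 1 without IRE1PKO 1, IRE1PKO 3 or IRE1fl 3 and 2 without IRE1fl 1 or IRE1fl 2. Dcxr, a carbonyl reductase, fell by 0.60 (SE 0.12), lost without IRE1PKO 1 (adjusted p = 0.0612). The death genes Bax and Bbc3 had log2 fold changes of 0.38 (SE 0.18) and 0.26 (SE 0.19) and did not pass; they are named after their values were seen.

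Of 16 tested p53 regulators and damage kinases, 1 rose and none fell, with a median of -0.001. For this list and those below, the shares over all tested genes are 5.68% higher and 3.86% lower, so 1 call among 16 genes is near that share. The one was Hipk2, a kinase that phosphorylates p53, at 0.41 (SE 0.11, edgeR adjusted p = 0.0381). Its call was lost without IRE1PKO 1, IRE1PKO 3, IRE1fl 2 or IRE1fl 3 (up to 0.136), and with limma-voom or without robust fitting. Of 15 paralogs of the 10 genes, Plk1 rose and Tob2 fell, as given above, and the median was 0.12. The CDK inhibitors nearest to Cdkn1a did not pass, with log2 fold changes of -0.12 (SE 0.11) for Cdkn1b and 0.64 (SE 0.36) for Cdkn1c. Sesn2 and Mdm4 are in more than 1 list.

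Of 19 tested cyclins, CDKs, CDK inhibitors and further cell cycle genes such as E2f3 and Pcna, 4 rose and none fell, with a median of 0.30. Cdk6, a G1 kinase, rose by 0.82 (SE 0.15, edgeR adjusted p = 0.0108) and passed without each library in turn. E2f3, a transcription factor of S phase entry, rose by 0.61 (SE 0.14), lost without IRE1PKO 1 or IRE1fl 2. Ccnb1, the mitotic cyclin B1, rose by 2.29 (SE 0.52) at a mean of 0.766 CPM over all libraries, lost without IRE1PKO 2, IRE1PKO 3, IRE1fl 2 or IRE1fl 3. Ccnd1, cyclin D1, rose by 0.81 (SE 0.20), kept only without IRE1PKO 2 (adjusted p up to 0.148 otherwise). Without IRE1PKO 1, IRE1PKO 3, IRE1fl 2 or IRE1fl 3 this list had 2 calls.

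S phase and mitosis genes had 5 higher and 1 lower of 21 tested, with a median of 0.57. Mcm2, a helicase subunit, had a rise of 1.13 (SE 0.20), and Tk1, a thymidine kinase, fell by 1.15 (SE 0.16), both also without each library in turn. Mcm6 rose by 0.93 (SE 0.20), Cdc20 by 1.54 (SE 0.37) and Top2a by 1.34 (SE 0.36). Aurkb rose by 1.92 (SE 0.54) at a mean of 0.666 CPM over all libraries. Neither Aurkb nor Mcm6, Cdc20 or Top2a was kept in all 6 fits without 1 library. Mcm6 was kept in 4 of those fits, Cdc20 in 2, Top2a in 1 and Aurkb in 0 (adjusted p up to 0.192), and all were lost without IRE1PKO 2 and without IRE1fl 3. The count of higher genes was 1 without IRE1PKO 2 or IRE1fl 3, 2 without IRE1PKO 3, and 3 without IRE1fl 1 or IRE1fl 2.

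Gadd45 proteins act on stress kinases, in part through MAP3K4. Of 12 tested p38 and JNK pathway kinases none rose and 1 fell, with a median of 0.03. Map2k3, which activates p38, fell by 0.55 (SE 0.13, edgeR adjusted p = 0.0284), lost without IRE1PKO 1, IRE1PKO 2, IRE1fl 2 or IRE1fl 3 (up to 0.113). Map3k4 itself did not pass, with a log2 fold change of 0.11 (SE 0.09).

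Immediate early genes, a class that shares inducers with Btg2, Plk3 and Gadd45b, had 6 higher and none lower of 20 tested, with a median of 0.69. Jun rose by 2.10 (SE 0.13, edgeR adjusted p = 1.0e-05), Klf6 by 1.45 (SE 0.21) and Atf3 by 2.32 (SE 0.42), each also without each library in turn. Myc rose by 1.19 (SE 0.24), lost without IRE1PKO 1 (adjusted p = 0.061). Maff rose by 0.66 (SE 0.15), lost without IRE1PKO 1, IRE1PKO 2 or IRE1fl 3. Egr2 rose by 1.97 (SE 0.56) at a mean of 0.592 CPM over all libraries, kept only without IRE1fl 1. The list summed to 371 to 518 CPM in IRE1PKO livers, highest in IRE1PKO 1, against 300 to 340 CPM in IRE1fl livers. Jun and Jund carry much of that difference. Jun had means of 63.5 CPM in IRE1PKO and 14.8 CPM in IRE1fl livers. Jund, at means of 143 and 105 CPM in the same order, did not pass, at 0.45 (SE 0.17). The list had 3 calls without IRE1PKO 1 and 4 without IRE1PKO 2 or IRE1fl 3. Fos, Egr1 and Junb, chosen after their values were seen, did not pass, with log2 fold changes of 0.83 (SE 0.35), 0.23 (SE 0.54) and -0.14 (SE 0.14). Of the 25 called genes in these 7 lists, 7 passed without each library in turn.

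**Figure D4:**
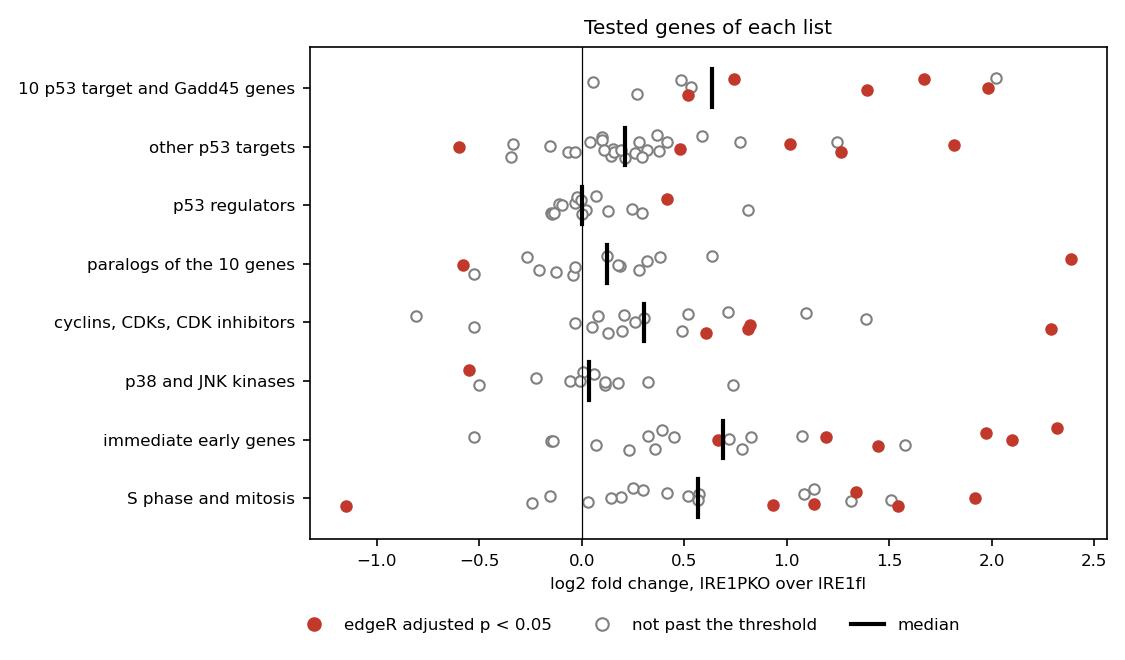
Log2 fold change of IRE1PKO over IRE1fl (horizontal axis) for every tested gene of the 10 genes and of 7 related lists (rows). Filled points passed edgeR's test and black bars are list medians, 0.64 for the 10 genes, 0.21 for other p53 targets and 0.69 for immediate early genes.

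Some markers of other liver cells also differed between the genotypes. Beside the counts of each cell type list, 5.68% of all tested genes were called higher and 3.86% lower. Of 10 stellate cell and fibroblast markers 8 rose and none fell, and the list summed to 432 to 461 CPM in IRE1PKO livers, against 227 to 265 CPM in IRE1fl livers. Its most abundant markers, Dcn and Reln, rose by 0.59 (SE 0.09) and 0.47 (SE 0.10), the second lost without IRE1PKO 2, IRE1fl 2 or IRE1fl 3. Of 10 recruited and lipid-associated macrophage markers 4 rose, with sums of 93.9 to 114 CPM in IRE1PKO and 46.4 to 64.0 CPM in IRE1fl livers. The 4 were Gpnmb, Cd63, Spp1 and Mmp12, the last lost without IRE1PKO 1, IRE1PKO 2, IRE1PKO 3 or IRE1fl 3. The most abundant of the list were Spp1, which rose by 0.81 (SE 0.13), and Lpl, at 0.28 (SE 0.34), which did not pass. Spp1 makes up much of the list's sums, at means of 40.8 CPM in IRE1PKO and 23.3 CPM in IRE1fl livers. It is also in the cholangiocyte list. Of 10 sinusoidal endothelial markers 4 rose, with sums of 322 to 440 CPM in IRE1PKO and 272 to 301 CPM in IRE1fl livers. That count was 0 without IRE1PKO 1 or IRE1fl 3, 1 without IRE1PKO 2 or IRE1fl 2 and 7 without IRE1PKO 3. Stab2 rose by 0.47 (SE 0.12), lost without all but IRE1PKO 3, and Stab1 did not pass, at 0.30 (SE 0.11).

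Hepatocyte markers had none higher and 3 lower (Cps1, Tat and Fah) of 9 tested, with sums of 84000 to 101000 CPM in IRE1PKO and 89600 to 105000 CPM in IRE1fl livers. Alb, at 0.03 (SE 0.14), and Apoa1, at -0.25 (SE 0.19), did not pass. Of 10 Kupffer cell markers Marco fell, with sums of 481 to 685 CPM in IRE1PKO and 411 to 569 CPM in IRE1fl livers. The fitted log2 fold change was above 0 for 9 of the 10, with a median of 0.29, and none was called higher. Cd5l and Clec4f did not pass at 0.31 (SE 0.19) and 0.27 (SE 0.13). Of 7 tested cholangiocyte markers Spp1 rose and Sox9 fell, with sums of 58.4 to 68.9 CPM in IRE1PKO and 53.4 to 58.6 CPM in IRE1fl livers. Spp1, at means of 40.8 CPM in IRE1PKO and 23.3 CPM in IRE1fl livers, makes up much of these sums. The fitted log2 fold change was above 0 for 2 of the 7, with a median of -0.15. T and NK cell markers had 1 lower of 8 tested, Cd4 at -2.09 (SE 0.37), and Lck, at -0.50, did not pass. The T and NK cell list summed to 3.39 to 4.45 CPM in IRE1PKO and 6.89 to 7.53 CPM in IRE1fl livers. Cd4 alone, at means of 0.596 CPM in IRE1PKO and 2.55 CPM in IRE1fl livers, carries much of that difference. The fitted log2 fold change was above 0 for 1 of the 8 tested markers. B and plasma cell markers had 1 lower of 8, Jchain at -1.48 (SE 0.33), lost without IRE1PKO 1, IRE1PKO 2 or IRE1fl 3, and Xbp1 did not pass at -0.50 (SE 0.24). Their sums were 162 to 267 CPM in IRE1PKO and 234 to 382 CPM in IRE1fl livers. Nearly all of that is Xbp1, an IRE1 substrate that hepatocytes also express, at 205 ± 52.2 CPM in IRE1PKO and 290.0 ± 72.7 CPM in IRE1fl livers (SD, n = 3 each), so the sum does not measure B cells. None of 3 tested neutrophil markers passed, the most abundant of them Csf3r at -0.23 (SE 0.27) and S100a8 at -0.77 (SE 0.83), with sums of 4.24 to 6.11 CPM in IRE1PKO and 4.07 to 12.5 CPM in IRE1fl livers. No marker of these lists found in the table was at 0 in all 6 libraries. The part of these cells in the changes of the 10 genes was not tested.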

How the data were processed

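Poly(A) RNA of 6 liver libraries, 3 IRE1PKO and 3 IRE1fl, was measured. The authors deposited raw counts per gene symbol; the submitters' processing notes name mm10 as the build. For the aligner, counter, annotation, strand setting and whether reads or fragments were counted, the entry is: not given in the sources used here. Even values outnumbered odd ones among counts of 1 to 8 by 2.58 to 3.19 times, and halved counts were tried as an alternative. Statements of precision from counts cover counting error only. The table holds 27 date-like names with 0.178% of counts, which stayed in totals and tests.

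Columns were matched to samples by genotype and number. Counts were filtered (filterByExpr), scaled by TMM and tested two-sided with the quasi-likelihood F-test of edgeR 4.0.16 (R 4.3.3) under robust fitting, with Benjamini-Hochberg adjustment over 14954 genes and a threshold of 0.05. SE is the log2 fold change divided by the root of F. CPM are relative to TMM-scaled totals of the tested genes. An exact permutation test of 3 against 3 cannot go below 0.1. On simulated counts for 14954 genes of this comparison, 67, 67 and 66 genes were changed 1.5-, 2- and 4-fold. The test recovered 26.9%, 67.2% and 95.5% of them, 8.03% of 137 calls were false, and 1 gene was called with none changed. Fewer genes were changed there than were called in the data, so recovery in the data may differ. Within groups, the chi-square per gene between library pairs was 28.6 to 63.4, beyond sampling noise, and each library was counted once.

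The members and lists were chosen with earlier results of these data known. All 10 members are named, with their paralogs, then called list members up to 6 per list, and the 2 most abundant markers of each cell type list, of which 1 is not reported here. Of the list symbols, 5 were not found in the table (Cop1, Tf, Trbc2, Igkc and Ighm). Alternatives were other scalings, filters, tests (DESeq2 1.42.0, limma-voom 3.58.1), a threshold of 0.1, a replicate block and each library left out. With 1 library left out, the remaining pair of that group shares its spread with the other group.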

Additional observations from a re-analysis of the deposited data

How the results depend on the processing

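No direction changed in any of the 160 pairs of a member and an alternative, 150 kept their side of the threshold, 5 lost the call and 5 gained it. Leaving out each library in turn, members called higher ran from 2 to 6 and those called lower stayed at 0. Over the 7 related lists the genes called higher, 21, ran from 9 to 16, and those called lower, 4, from 1 to 4. Over the cell type lists the markers called higher, 16, ran from 9 to 19, and those called lower, 7, from 6 to 7. The other alternatives gave 5 or 6 members higher, the sixth being Cdkn1a with the DESeq2 Wald test, limma-voom, edgeR without robust fitting and the replicate block. Over all genes, 849 were higher and 577 lower, against 1182 and 890 with the DESeq2 Wald test and 1299 and 992 at a threshold of 0.1. S phase and mitosis calls ran from 3 with a mean of 1 CPM, limma-voom or no robust fitting to 8 with DESeq2 and 9 at a threshold of 0.1, and the cause was not tested.

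The labels do not say that the shared replicate numbers pair the libraries, and deviations of same-numbered libraries correlated at 0.0712, -0.0216 and 0.101. Of the 3 IRE1PKO libraries, 2 correlated best with their own number. With the replicate block, 6 members were higher, Cdkn1a among them (2.09, edgeR adjusted p = 4.32e-05), and 1051 genes were higher and 814 lower. Gadd45b and Phlda3 rest on low counts in IRE1fl (101 and 139 in all), which limits their precision.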
